A study of Ovis aries with 40 samples.

Results

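The comparison covers the longissimus dorsi, the long muscle of the back, in Ujumqin sheep fetuses at 120 and 135 d of gestation. Its members were chosen by their sample titles, which give 3 fetuses at 135 d and 3 at 120 d, so 6 of the 40 arrays in the series. The series followed this muscle through fetal life in a heavily muscled breed, Texel, and in a fat-tailed Mongolian breed, Ujumqin, and in Ujumqin lambs after birth. RNA of each animal was labelled with a single dye and hybridized to its own Agilent sheep array, with no pooling of animals. The ewes had been synchronised in estrus and inseminated with semen of their own breed, and the fetuses were recovered by caesarean section. The groups compared are U120 and U135 (Ujumqin at 120 and 135 d), all 6 labelled female. Beside them stand T120 (Texel at 120 d, 3 males) and T135 (Texel at 135 d, 2 males and 1 female). Fetuses of both breeds at 70, 85 and 100 d, with both sexes in each group, entered the fits and the stage profiles.

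In sheep, as in other large mammals, nearly all muscle fibres have formed well before birth. During the last weeks of gestation the fibres grow in girth, the dividing precursor cells between them become fewer, fetal forms of contractile proteins give way to adult fast and slow forms, and the enzymes that burn sugar and fat accumulate. At the same time the hormonal setting of the fetus changes: cortisol and thyroid hormone rise towards term, and the fetal growth factor IGF2 gives way to endocrine control by growth hormone and IGF1 after birth.

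Apart from controls, an array carried 15208 spots, which stand for 15008 probes of 60 bases. The share of probes well above background was 89%, 88.4% and 86.7% on the U120 arrays (replicates 1, 2 and 3) and 83.3%, 85.3% and 85.5% on the U135 arrays, so it was lower at 135 d on every array. The median processed signal before scaling was 499.1, 367.8 and 371.5 units at 120 d and 278.1, 317.1 and 297.7 units at 135 d, again without overlap. Arrays of the same group correlated across probes with r from 0.985 to 0.993 at 120 d and from 0.986 to 0.987 at 135 d. All 3 U120 arrays lay on slide 4 and all 3 U135 arrays on slide 5, so that within Ujumqin the age and the slide cannot be told apart. Texel gives the only values of the same interval within a slide, since 1 T135 array lay on slide 4 beside 2 T120 arrays. Values are log2 of the quantile-normalized signal, changes are U135 minus U120 on that scale, and errors are standard errors (SE) of limma. A probe is called, and said to have risen or fallen, when its adjusted p was under 0.05. Each U120 and U135 value that follows is given in the order of replicates 1, 2 and 3.

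Between 120 and 135 d, the called probes of energy metabolism and of redox enzymes were mostly higher, and those of the cell cycle, the extracellular matrix and the insulin-like growth factor family mostly lower. In the list of glycolysis and glycogen 14 of 38 probes rose and 1 fell, in that of fatty acid oxidation and mitochondria 7 of 22 rose and 0 fell, and in that of redox and detoxification 8 of 16 rose and 0 fell, where 7.16% of all tested probes rose and 7.53% fell. In the cell cycle list 11 of 22 probes fell and 1 rose, in the list of extracellular matrix 7 of 26 fell and 0 rose, and in the insulin-like growth factor family 7 of 25 fell and 1 rose. With slide as a term in the fit, 0 probes were called in the lists of glycolysis, redox, the cell cycle and the insulin-like growth factor family, 1 in that of fatty acid oxidation and 2 in that of extracellular matrix. Among single named genes, the collagenase MMP1 fell furthest, and the purine-degrading enzyme XDH, the interferon-induced GTPase GBP2 and the vitamin B6 kinase PDXK rose furthest.

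Over all 14379 probes tested, limma called 2112 (14.7%), of which 1029 were higher (7.16%) and 1083 lower (7.53%) at 135 d. A change of 2-fold or more was found for 601 of them (4.18%), 310 higher (2.16%) and 291 lower (2.02%), and one of 4-fold or more for 42 higher and 39 lower. The median size of a called change was 0.77, and the called changes ranged from -5.91 to 6.50, while the median over all tested probes was -0.02. The 3 arrays of each age did not overlap for 5179 probes (36%) and for 2081 of the called ones. A gene name was available for 1779 of the tested probes (1175 genes), of which 150 were called higher and 166 lower. Under median scaling 1314 of all tested probes were called higher and 961 lower, so that the larger share lay on the other side. The methods' t-test called 0 probes at an adjusted p under 0.05, a threshold stricter than the one used in the study, with 2775 at an unadjusted p under 0.05, against 4377 at that level by limma. When a 2-fold change was also asked for, the methods' t-test gave 272 higher and 242 lower at the unadjusted level.

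**Figure D1:**
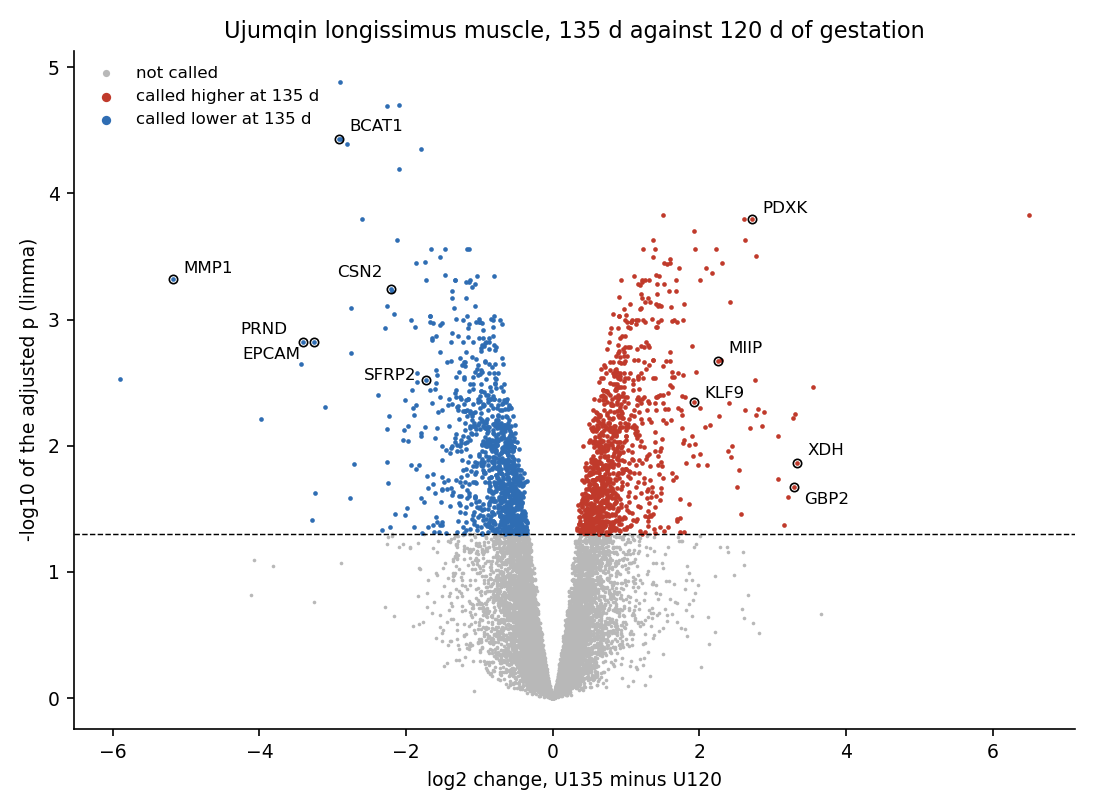
Change from 120 to 135 d (log2, U135 minus U120, horizontal axis) against the adjusted p of limma (as minus log10, vertical axis) for each of the 14379 tested probes. The dashed line marks an adjusted p of 0.05, above which 1029 probes lie to the right and 1083 to the left, and MMP1 lies far to the left.

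With slide as a term in a fit over all 31 fetal arrays, limma called 198 probes (1.38%), 73 higher (0.508%) and 125 lower (0.869%). In that fit the step from slide 4 to slide 5 is estimated from the T135 arrays alone, of which 1 lay on slide 4 and 2 on slide 5. Every value with the slide term thus rests on T135 replicate 1, which also enters all Texel values within slide 4. On that array 81.4% of probes were well above background, and the median processed signal was 237.9 units. Of the 2112 probes called without that term, 92 were also called with it and 1942 (92%) had the same sign. Of the 139 called probes that are named here, 11 kept their call with the slide term: both MMP1 probes, both MYH7 probes, 1 of 2 MB probes, THRB, MIIP, PTGER4, SFMBT1 and the unnamed probes A_70_P023026 and A_70_P053436. For the rest of the 139 probes the call ended with that term, and 10 of them turned direction, which are given with the genes below. KRTAP11-1, a called skin marker outside the 139, lost its call and turned direction too, to -1.70 (adjusted p = 0.572). Leaving out single arrays gave 628 to 940 probes called higher, lowest without U135 replicate 2, and 618 to 899 called lower, lowest without U120 replicate 2. Of the 139 probes, 83 were called without each of the 6 arrays in turn.

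Xanthine dehydrogenase (XDH), which makes uric acid from purines, had the largest rise of a named gene over all 6 arrays. Its U120 arrays read 3.95, 5.52 and 4.69 and its U135 arrays 6.75, 10.34 and 7.06. All U135 values lay above all U120 values, and U135 replicate 2 stood far above the other arrays. The rise was 3.33 ± 0.78 (SE, n = 3 and 3, adjusted p = 0.0138), 2.66 with the slide term, and it was not called without U120 replicate 1 (2.95, adjusted p = 0.0537) or with another background correction. A further XDH probe, which shares 48 of its 60 bases, rose by 3.16, not called without any of 4 single arrays (adjusted p up to 0.141). Without U135 replicate 2 the change of that further probe was 1.96, and PDXK, given next, rose by 2.69. In Texel the gene rose too, by 2.76 (adjusted p = 0.0423), and by 1.88 within slide 4.

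Pyridoxal kinase (PDXK), which makes the active form of vitamin B6, read 10.38, 10.93 and 11.21 at 120 d and 13.99, 13.60 and 13.07 at 135 d. The groups were far apart, with a gap wider than the spread within either. The rise was 2.71 ± 0.26 (SE, n = 3 and 3, adjusted p = 0.000161), but 0.51 with the slide term, and the Texel change was 1.31 over all arrays and -1.06 within slide 4. GBP2, a GTPase that interferon induces, read 10.74, 7.34 and 6.43 at 120 d and 10.77, 11.998 and 11.60 at 135 d. U120 replicate 1 lay just under the lowest U135 array, so that the groups barely separated. GBP2 rose by 3.29 ± 0.84 (adjusted p = 0.0214), was not called without U120 replicate 2 or 3 or U135 replicate 2 or 3 (adjusted p up to 0.0806), and a further probe of the gene changed by 1.37 with overlapping groups and an adjusted p of 0.0851. The GBP2 value was 1.74 with the slide term, and -1.39 in Texel and -2.99 within slide 4.

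MIIP, an inhibitor of cell migration, read 8.22, 9.05 and 9.09 at 120 d and 10.95, 10.70 and 11.48 at 135 d. Each U135 array was above each U120 array by more than the spread within the groups. It rose by 2.26 ± 0.36 (adjusted p = 0.00213) and by 3.11 with the slide term (adjusted p = 0.0358), beside a Texel change of -0.32. PTGER4, a receptor for prostaglandin E2, read 5.38, 5.59 and 5.46 at 120 d and 6.81, 7.33 and 7.61 at 135 d, without overlap. Its rise was 1.77 (adjusted p = 0.00957), and 1.77 again with the slide term (adjusted p = 0.0458), although a further PTGER4 probe changed by 0.17 (adjusted p = 0.766). Prostaglandin F synthase (PGFS) rose on all 3 of its probes, by 1.92, 1.75 and 1.20, and the first of these also rose in Texel, by 1.43 (adjusted p = 0.0109). In Ujumqin its call ended without U135 replicate 2 (1.62, adjusted p = 0.0544), and that of the third probe without any of 4 single arrays (adjusted p up to 0.0942).

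The remaining named genes with the largest rises were spread over several functions. CCL26, a chemokine that attracts eosinophils, rose by 2.69 (adjusted p = 0.00724), MECR, an enzyme of fatty acid synthesis in mitochondria, by 2.40 (adjusted p = 0.00457), and MAOB, which oxidizes amines in the outer mitochondrial membrane, by 2.27 (adjusted p = 0.00578). For MAOB only 2 of 3 U120 arrays were well above background. The alpha-class glutathione S-transferase GSTA1-1 rose on both of its probes, by 1.79 and 1.55, and LOC443288, a locus without a gene symbol, by 1.92. A further LOC443288 probe, well above background on 0 U120 and 0 U135 arrays, changed by -0.03 (adjusted p = 0.971). ANKRD1, a stretch-responsive partner of titin, read 12.44, 14.10 and 14.58 at 120 d and 15.21, 15.42 and 15.69 at 135 d. Its U120 replicate 1 stood well under the other U120 arrays, and its rise of 1.73 (adjusted p = 0.0487) was not called without that array (1.10, adjusted p = 0.169) or without 4 of the other 5. With the slide term the ANKRD1 change was 0.40.

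MMP1, the collagenase that cuts fibrillar collagen, had the largest fall of a named gene. Its 60-base probes lie in the coding part and differ by a shift of 1 base, so they are not independent of each other. They are printed because no other named gene moved further.
MMP1 A_70_P026537: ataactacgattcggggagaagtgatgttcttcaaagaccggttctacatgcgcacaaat
MMP1 A_70_P026536: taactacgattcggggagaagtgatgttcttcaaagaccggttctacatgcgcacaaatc

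The former probe read 8.02, 8.04 and 8.73 at 120 d and 1.47, 3.87 and 3.92 at 135 d. It was well above background on all 3 U120 arrays and on 0 of 3 U135 arrays, so on this probe the signal at 135 d can only be bounded. The fitted fall was -5.18 ± 0.61 (SE, n = 3 and 3, adjusted p = 0.000481), and the signal of this probe was at least 15.9-fold lower at 135 d. With the slide term the change was -7.07 (adjusted p = 0.00129). Texel arrays gave -2.13 (adjusted p = 0.0704), and -3.38 within slide 4. In the latter probe, which had no value on U135 replicate 1 because its spot was marked as an outlier, the change was -3.97 (adjusted p = 0.0062), and from the deposited table it was not called. That probe read 5.78 and 2.71 on U135 replicates 2 and 3, with 1 of these arrays well above background. Without U135 replicate 3 its change was -2.44.

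PRND encodes doppel, a relative of the prion protein that is known mainly from the testis and from blood vessels of the young brain. It read 10.38, 9.29 and 9.63 at 120 d and 6.92, 5.64 and 6.52 at 135 d. The lowest U120 array lay well above the highest U135 array. It fell by -3.40 ± 0.51 (adjusted p = 0.00152), and by -2.38 (adjusted p = 0.00393) on a probe from another stretch of the transcript, beside -1.35 in Texel over all arrays and 0.18 within slide 4.

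BCAT1, the cytosolic aminotransferase of branched-chain amino acids, is used more by fetal tissues and tumours than by most adult tissues. At 120 d it read 9.42, 10.07 and 9.97, and at 135 d 7.23, 6.70 and 6.77. Both groups were tight and far apart. The fall was -2.91 ± 0.23 (adjusted p = 3.73e-05), with -1.67 (adjusted p = 0.000942) on a further probe that shares at most 9 bases with it. In Texel, BCAT1 changed by -0.08 over all arrays and by 1.36 within slide 4, and the difference between the breeds in this change was not called (-2.83, adjusted p = 0.225).

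Several further falls concerned secreted or surface proteins. Beta-casein (CSN2), a milk protein whose transcript was bright on these fetal arrays, read 12.03, 12.80 and 12.47 at 120 d and 10.57, 10.09 and 10.04 at 135 d. The groups did not overlap, and CSN2 fell by -2.20 (adjusted p = 0.000577), beside -0.04 in Texel. Apolipoprotein A1 (APOA1), the main protein of high-density lipoprotein, read 12.95, 12.42 and 12.98 at 120 d and 10.71, 11.001 and 11.40 at 135 d. Its groups were likewise separate, and it fell by -1.74 (adjusted p = 0.00035) and by -1.43 on a further probe, not called without U135 replicate 3 (adjusted p = 0.0632). NPPC, the precursor of C-type natriuretic peptide, fell by -1.86 (adjusted p = 0.0152), a call that ended without U120 replicate 3 or U135 replicate 2 (-1.43, adjusted p = 0.0629). The phospholipid transporter ABCB4 fell by -2.71 (adjusted p = 0.014), not called without U120 replicate 2 or U135 replicate 2 or 3 (adjusted p up to 0.0556), and the death-promoting protein BAX by -2.03 (adjusted p = 0.00756).

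EGR1, a transcription factor switched on within minutes of a stimulus, was called lower on 1 of its 4 probes, a dim one, by at least 2.85-fold. On that probe U120 replicate 3 (7.70) stood above U120 replicates 1 and 2 (5.46 and 4.17), and the call ended without any of 4 arrays (adjusted p up to 0.0827). The other 3 EGR1 probes were well above background on all 6 arrays and were not called, with changes of 0.15 (adjusted p = 0.75), -1.95 (adjusted p = 0.0638) and -1.95 (adjusted p = 0.0642). Some called probes were not above background at 135 d: that of the alcohol dehydrogenase ADH6 was at least 2.35-fold lower, that of the chromatin protein SFMBT1 at least 1.12-fold and 1 of 2 for the glutamate receptor GRM8 at least 1.34-fold. The fitted ADH6 change was -2.23, but -0.30 with the slide term, beside -0.72 in Texel over all arrays and 0.55 within slide 4. The other GRM8 probe changed by 0.01 (adjusted p = 0.993). Interleukin 1 alpha (IL1A) read 5.47, 6.01 and 5.62 at 120 d and 2.95, 2.93 and 4.45 at 135 d, with 1 of 3 U135 arrays well above background. Its fall was -2.26 (adjusted p = 0.00734), and with another background correction the calls of IL1A, GRM8, SFMBT1, EGR1 and EPCAM ended.

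**Figure D2:**
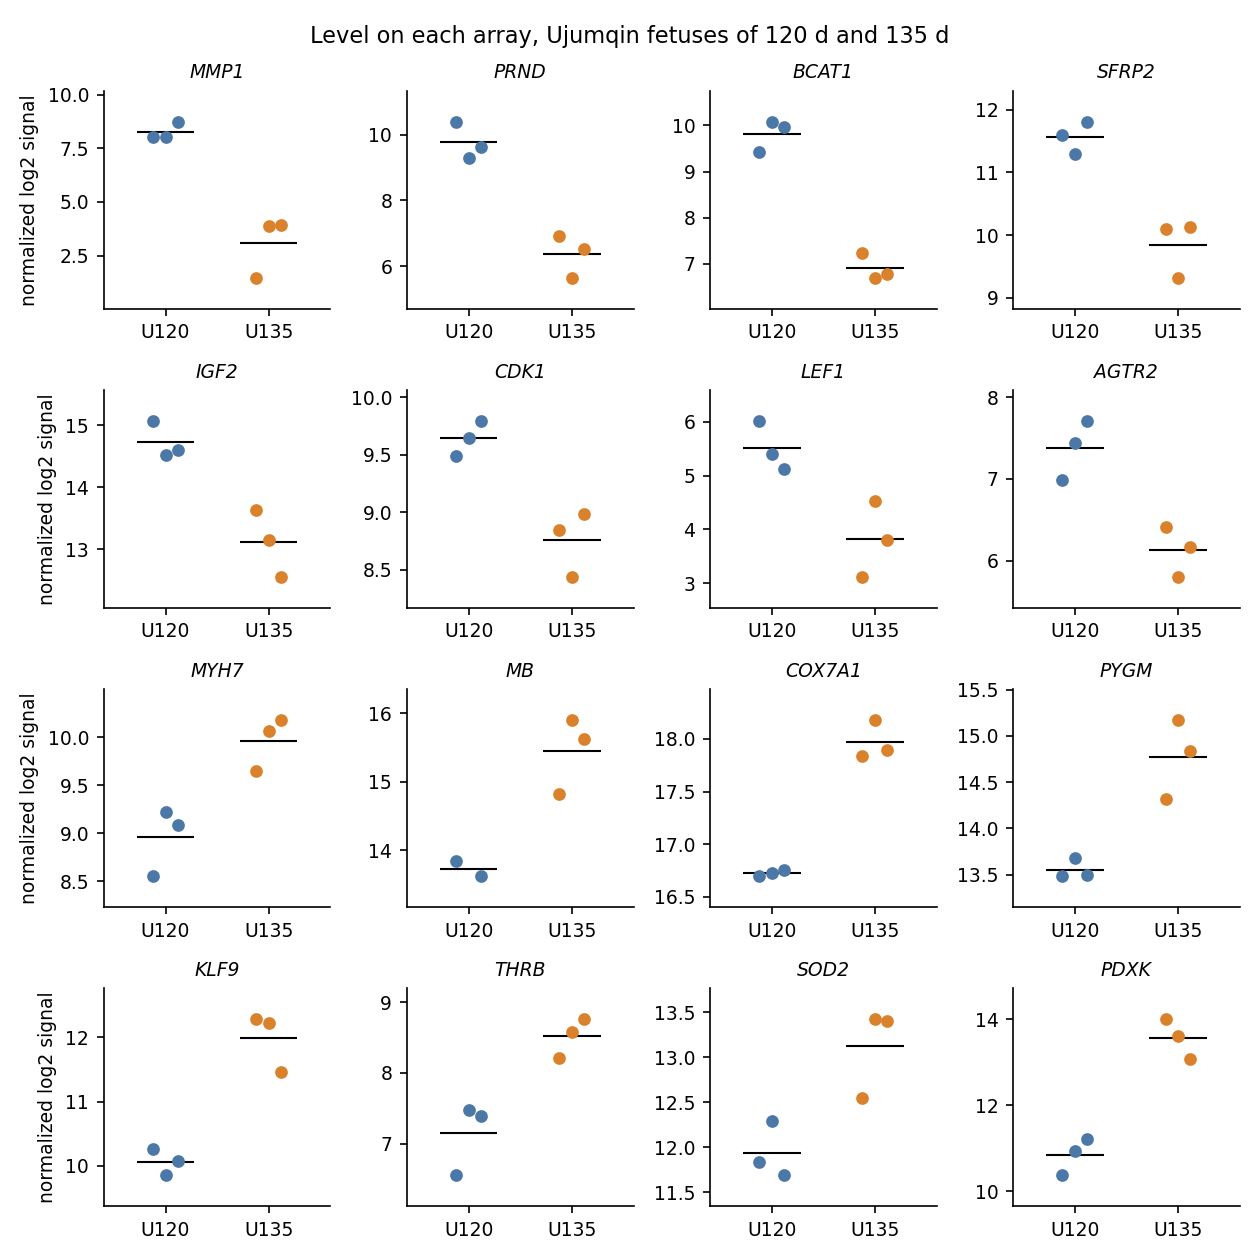
Level of 16 named genes on each U120 and U135 array (log2 normalized signal), with a bar at the mean of each group. MMP1, PRND, BCAT1 and PDXK separate the ages most widely, and MB has only 2 points at 120 d for the probe shown because a spot was left out as an outlier.

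Most called probes had no gene name, 879 of them higher and 917 lower. The widest rise of all was that of probe A_70_P023026, which read 4.98, 4.24 and 4.25 at 120 d and 10.23, 12.41 and 10.33 at 135 d. Every U135 array was far above every U120 array, with a rise of 6.50 (adjusted p = 0.000149), 6.59 with the slide term (adjusted p = 0.00594) and 4.66 in Texel (adjusted p = 0.0314). The widest fall was that of A_70_P060201, from 12.95, 12.28 and 12.43 to 4.82, 7.54 and 7.58, a change of -5.91 (adjusted p = 0.00297). Its U120 arrays were bright and alike, and its U135 arrays were dim.

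The cell cycle list follows the machinery with which cells copy their DNA and divide, and 20 of its 22 probes were below 0, with a median of -0.75 against -0.02 over all tested probes. CDK1, the kinase that starts mitosis, read 9.49, 9.65 and 9.79 at 120 d and 8.85, 8.44 and 8.99 at 135 d. Its groups did not overlap, and it fell by -0.89 ± 0.16 (adjusted p = 0.00396) and, with the slide term, changed by -1.21. Its partner cyclin A2 (CCNA2) fell by -0.76, thymidylate synthase (TYMS), which supplies the thymidine nucleotide for DNA, by -0.83, the replication-clamp partner PCLAF by -0.95, and the mitotic kinase AURKB and motor protein KIF15 by -0.84 and -0.99. In CENPE, a motor at the kinetochore, no U135 array was well above background, and it was at least 1.43-fold lower. CDKN1C, an imprinted inhibitor of the cycle and so not a gene of proliferation, read 15.40, 15.27 and 15.36 at 120 d and 14.56, 14.44 and 14.59 at 135 d. Its groups were tight and separate, and it fell by -0.81 (adjusted p = 0.00134), but the slide term turned the change to 0.06. CDK2 was the member that rose, by 0.72 (adjusted p = 0.00696), while PCNA (-0.06 and -0.45) and CDK4 (-0.34) were not called. The call of CDCA3 ended without U135 replicate 2 (adjusted p = 0.062), that of CCND2 without that array or U120 replicate 1 (adjusted p up to 0.0591) and that of AURKA without any of 5 arrays (adjusted p up to 0.146). Over the list the median was -0.40 with the slide term, where 0 of 22 probes were called, -0.44 in Texel and -0.00 within slide 4 in Texel. These are bulk samples, in which fewer cells of a type and less RNA per cell cannot be told apart.

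Myogenic regulators set muscle identity and keep precursor cells in reserve, and 7 of their 24 probes (29.2%, against 14.7% of all tested probes) fell and 0 rose, with a median of -0.49. The identity factor MYOD1 read 15.15, 15.20 and 15.12 at 120 d and 14.07, 14.55 and 14.78 at 135 d. The U135 arrays spread widely but all lay under the U120 arrays, and MYOD1 fell by -0.69 (adjusted p = 0.0396), with -0.47 on a probe that shares 59 bases. LEF1, a nuclear partner of Wnt signalling, fell by -1.70 and -1.38 on probes that share 58 of 60 bases, with 1 of 3 U135 arrays well above background. MYF5, active in precursor cells, fell by -0.85, INHBA, which encodes an activin subunit, by -1.28, and the growth factor receptor FGFR1 by -0.59 and -0.87. MYF5 and INHBA each have a further probe that shares 59 bases with the called one and was not among the called probes. The calls of MYF5, INHBA, MYOD1, the former LEF1 probe and the latter FGFR1 probe each ended without any of 3 to 5 single arrays (adjusted p up to 0.13), and that of MYOD1 also under both other scalings. Myostatin (MSTN), the brake on muscle growth, read 11.85, 11.005 and 11.31 at 120 d and 9.75, 11.93 and 10.96 at 135 d. Its groups overlapped and it was not called (-0.51, adjusted p = 0.438), nor was its antagonist follistatin (FST, -0.39 and -0.40) or myogenin (MYOG, 0.19 and -0.57). The list's median was -0.62 with the slide term and 0.04 in Texel.

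**Figure D3:**
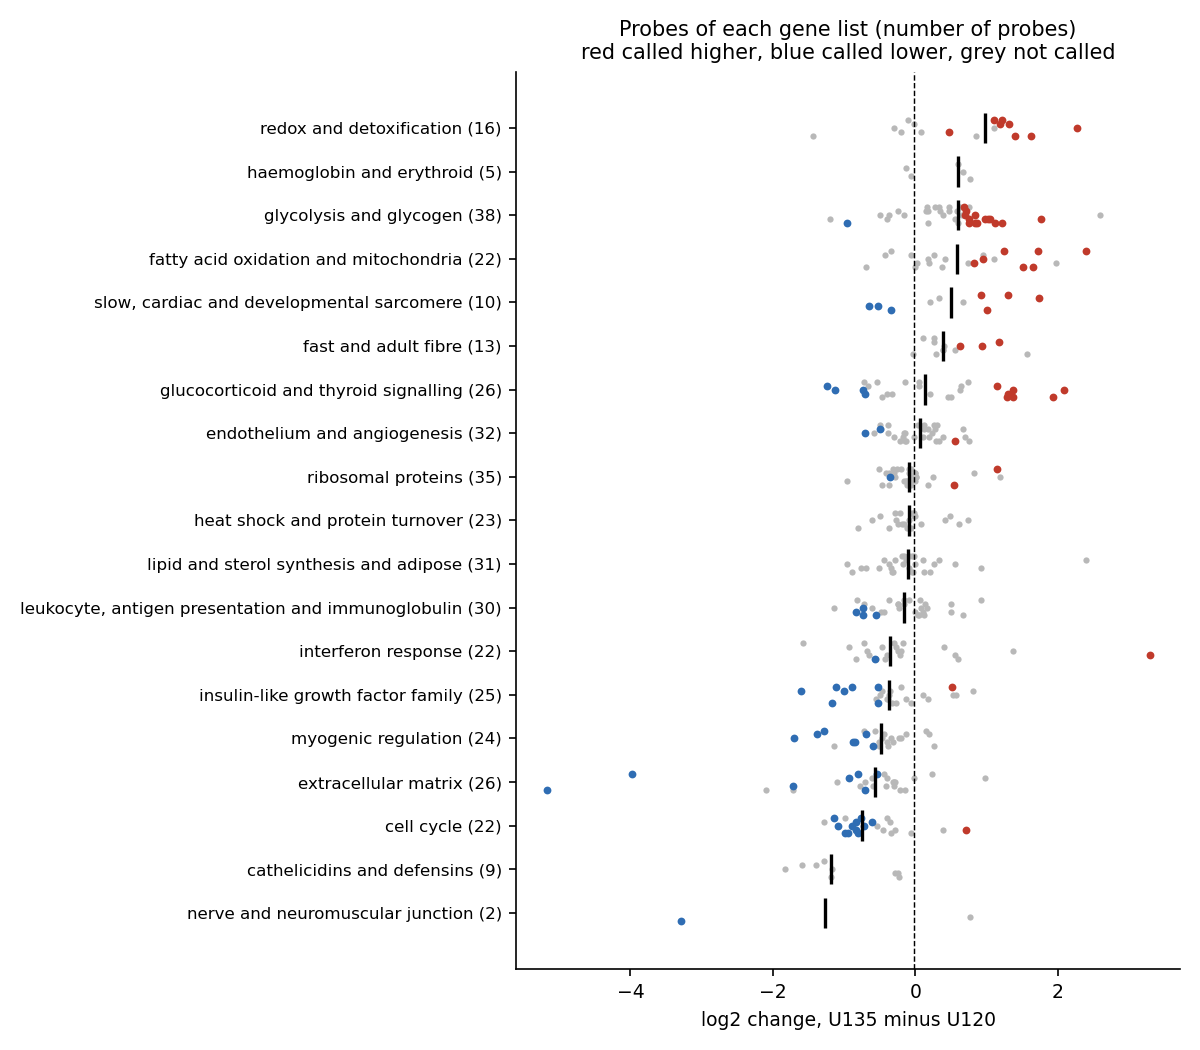
Change from 120 to 135 d (log2) of every tested probe in the 19 gene lists, with a bar at the median of each list. Red probes were called higher, blue ones lower and grey ones neither, and the cell cycle list has 11 blue probes and 1 red one while the redox list has 8 red ones.

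Of the contractile proteins, the slow form moved on both of its probes. MYH7 encodes the myosin heavy chain of slow fibres and heart, and its probes come from different coding stretches that share at most 8 bases, so they measure the same transcript at separate places.
MYH7 A_70_P026017: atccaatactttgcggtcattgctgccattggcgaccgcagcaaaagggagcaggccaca
MYH7 A_70_P026016: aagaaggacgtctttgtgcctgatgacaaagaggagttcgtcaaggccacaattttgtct

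The former read 8.55, 9.22 and 9.09 at 120 d and 9.65, 10.06 and 10.18 at 135 d, and the latter 8.27, 8.77 and 8.75 against 9.17, 9.84 and 9.53. On both, every U135 array was above every U120 array. MYH7 rose by 1.01 ± 0.20 (adjusted p = 0.00706) and 0.92 ± 0.21 (adjusted p = 0.0115), and with the slide term by 2.36 (adjusted p = 0.0307) and 1.86 (adjusted p = 0.0395). The latter probe was not called without U135 replicate 2 (0.76, adjusted p = 0.0509). In Texel the changes were 0.30 and 0.53 over all arrays, not called, and 0.85 and 1.04 within slide 4. In the list of slow, cardiac and developmental sarcomere proteins 4 of 10 probes rose and 3 fell. Together these were 70%, against 14.7% of all tested probes, and those that fell were all for the cytoskeletal actin ACTG1. The ACTG1 changes were -0.35, -0.65 and -0.52, and they turned to 0.16, 0.13 and 0.14 with the slide term and, for the brightest of the probes, to 0.10 and 0.15 under scaling by the 75th percentile and by the median. That probe was not called without U120 replicate 1 or U135 replicate 2 (adjusted p up to 0.0582). ACTB, which was well above background on 1 U120 and 2 U135 arrays, rose by 1.31, a call that ended without any of 4 single arrays (adjusted p up to 0.11), and tropomyosin 1 (TPM1, 0.33) was not called.

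Fast fibre genes were bright at both ages, and 3 of 13 probes (23.1%, against 14.7% of all tested probes) rose and 0 fell, with a median of 0.39. For MYH1, the heavy chain of fast fibres, 1 of 3 probes was called, which read 14.21, 13.29 and 13.85 at 120 d and 14.80, 15.01 and 15.06 at 135 d. The groups did not overlap, and the rise was 1.17 ± 0.21 (adjusted p = 0.00408), while the other probes changed by 0.29 and 0.41. EEF1A2, the translation elongation factor of mature muscle and nerve, rose by 0.94 (adjusted p = 0.00528) on 1 of its 2 probes, and the thin-filament cap TMOD4 rose by 0.63 (adjusted p = 0.0499), a call that ended without each of the 6 arrays in turn (adjusted p up to 0.129). ACTN3 (0.39), MYH2 (0.26 and 0.26) and the calcium store protein CASQ1 (0.56) were not called. Scaling by the 75th percentile gave 7 called probes in this list and a median of 0.76.

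Glycolysis and glycogen breakdown supply fast energy to contracting fibres, and the median of their 38 probes was 0.59. Muscle glycogen phosphorylase (PYGM), which frees glucose from glycogen, read 13.49, 13.68 and 13.50 at 120 d and 14.32, 15.17 and 14.84 at 135 d. The U120 arrays lay close together and all U135 arrays above them, with a rise of 1.22 ± 0.24 (adjusted p = 0.00664) and 1.26 with the slide term. Aldolase C (ALDOC) went from 11.51, 11.39 and 11.57 to 12.28, 12.73 and 12.60, again without overlap, a rise of 1.05 (adjusted p = 0.00614). All 5 probes of GAPDH, which oxidizes the triose phosphate, rose, by 0.98, 0.84, 0.83, 1.11 and 1.02, although 2 pairs of them share 57 and 59 bases. Lactate dehydrogenase A (LDHA) rose on both probes, by 0.68 and 0.76, and the phosphofructokinase of muscle (PFKM) by 0.76. The PFKM call ended without U135 replicate 2 (adjusted p = 0.0538), that of the former LDHA probe without U120 replicate 1 (adjusted p = 0.0565), and that of the last GAPDH probe named without any of 3 arrays (adjusted p = 0.0887 at most). TPI1 (0.71), ALDOA (0.70) and ENO3 (0.86) rose as well, but each of these calls ended without any of 4 or more single arrays (adjusted p up to 0.145). FBP2, the muscle fructose bisphosphatase that runs the pathway towards glycogen, read 12.30, 12.28 and 11.90 at 120 d and 13.12, 14.65 and 13.98 at 135 d. Its rise, 1.76 ± 0.34 (adjusted p = 0.00572), was the widest of the list. The member that fell was PCK1, an enzyme of glucose synthesis, by -0.96 (adjusted p = 0.0325) near background, and the slide term turned it to 0.39. The insulin-dependent glucose carrier SLC2A4 (0.35 and 0.33) and hexokinase HK1 (0.17) were not called. With the slide term the list's median was 0.64 and 0 of its probes were called, and in Texel it was 0.26 over all arrays and 0.17 within slide 4.

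Oxygen storage and the burning of fat moved the same way on the called probes. Myoglobin (MB), which stores oxygen in red fibres, read 13.92, 13.86 and 13.89 at 120 d and 14.86, 16.06 and 15.70 at 135 d. The U120 arrays were nearly alike, and the lowest U135 array stood clear of them. The rise was 1.65 ± 0.28 (adjusted p = 0.00283), and 1.72 on a probe that shares 59 bases and lacks U120 replicate 3, where the slide term gave 2.13 (adjusted p = 0.0475). COX7A1, the muscle form of a subunit of cytochrome c oxidase, was brighter still, at 16.70, 16.72 and 16.76 against 17.84, 18.18 and 17.89. There was no overlap, and the rise was 1.24 ± 0.22 (adjusted p = 0.00408), 0.83 with the slide term. ACADM, which begins the oxidation of medium-chain fatty acids, rose by 1.51 (adjusted p = 0.00463), and CPT1B, the gate for long-chain fatty acids into muscle mitochondria, by 0.82 and 0.96 on probes that share 40 bases. PDK4, which turns fuel use from sugar to fat, read 11.30, 12.12 and 12.83 at 120 d and 15.16, 14.91 and 12.11 at 135 d. U135 replicate 3 lay among the U120 arrays, and the gene was not called (1.98, adjusted p = 0.127). Lipoprotein lipase (LPL, 1.10 and 0.95) and the uncoupling protein UCP3 (0.19 and 0.42) were not called either. The median of the 22 probes was 0.58, with 0.94 under the slide term, 0.66 in Texel and 0.48 within slide 4.

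Among redox and detoxifying enzymes, 8 of 16 probes rose and the median was 0.98. The mitochondrial superoxide dismutase SOD2 read 11.83, 12.30 and 11.69 at 120 d and 12.54, 13.42 and 13.41 at 135 d. Its U135 replicate 1 lay nearest the U120 arrays but above them all, and SOD2 rose by 1.18 ± 0.25 (adjusted p = 0.00816) and by 1.11 on a further probe that shares 30 bases. Aldehyde oxidase (AOX1) read 8.38, 8.75 and 8.43 against 10.11, 10.34 and 9.998, a clear separation with a rise of 1.63 ± 0.27 (adjusted p = 0.0026). The Texel change of AOX1 was 0.05, and -0.59 within slide 4. GSTA1, another alpha-class glutathione transferase, rose by 1.31 and 1.22 on its probes, the former not called without U120 replicate 2 (adjusted p = 0.0515), and ALDH1A1, which makes retinoic acid, by 1.40 (adjusted p = 0.0249), not called without U120 replicate 2 or 3 or U135 replicate 2 (adjusted p up to 0.0925). The iron store FTH1 rose by 0.47 on 1 of 3 probes, a call that the slide term turned to -0.14 and that ended without any of 5 arrays, while thioredoxin (TXN, -0.20 and -0.30) was not called. The list's median was 0.55 with the slide term, 0.13 in Texel and 0.04 within slide 4.

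The extracellular matrix list fell on its called probes, and 24 of its 26 probes were below 0, with a median of -0.57. SFRP2, a secreted modulator of Wnt signals made by connective tissue cells, read 11.60, 11.30 and 11.80 at 120 d and 10.09, 9.32 and 10.13 at 135 d. The groups did not overlap, and SFRP2 fell by -1.72 ± 0.29 (adjusted p = 0.00303), with -1.28 in Texel and -0.81 within slide 4. MMP14, a collagenase bound to the cell surface, fell by -0.93 (adjusted p = 0.00983) on 1 of its 2 probes, and collagen III (COL3A1), the collagen of young connective tissue, by -0.81 (adjusted p = 0.00504) and -0.71 (adjusted p = 0.0356) on 2 of 3 probes, which share 58 bases, the latter not called without any of 5 single arrays (adjusted p up to 0.12). Decorin (DCN), a small proteoglycan on collagen fibrils, fell by -0.54 (adjusted p = 0.024), but its change was 0.00 and 0.06 under scaling by the 75th percentile and by the median. Its call ended without any of 3 single arrays (adjusted p up to 0.0874), and the other DCN probe changed by -0.15 with overlapping groups (adjusted p = 0.627). The collagen I chains COL1A1 (-0.60) and COL1A2 (-0.61), lumican (LUM, -1.71), elastin (ELN, 0.98) and tenascin C (TNC, -1.11) were not called. With the slide term the list's median was -0.34, and in Texel it was -0.40 over all arrays and -0.15 within slide 4.

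IGF2, the chief growth factor of the fetus, was measured by a coding probe and by a probe elsewhere in the transcript, with at most 6 bases in common. The coding probe is printed because its values carried the call.
IGF2 A_70_P016796: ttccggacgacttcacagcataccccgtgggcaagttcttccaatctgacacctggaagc

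It read 15.07, 14.53 and 14.60 at 120 d and 13.64, 13.16 and 12.56 at 135 d. Every U135 array was lower than every U120 array, and IGF2 fell by -1.61 ± 0.34 (SE, n = 3 and 3, adjusted p = 0.00876). The other probe read 17.47, 17.63 and 17.73 against 17.45, 16.76 and 17.22, with U135 replicate 1 just below the U120 arrays, and was not called (-0.47, adjusted p = 0.0819). Of the proteins that bind IGFs in the fluid around cells, IGFBP2 fell by -1.17 and -0.88, IGFBP3 by -1.12 and -1.001 and IGFBP4 by -0.52 on each of 2 probes, where the probes of IGFBP2 and of IGFBP4 share 59 bases. The slide term gave -0.16 and -0.13 for IGFBP2 and 0.04 and -0.06 for IGFBP4, and both IGFBP3 calls ended without U120 replicate 1 or U135 replicate 2, and the latter also without replicate 3 of either age (adjusted p up to 0.119). IGFBP1 rose by 0.52 on 1 of 3 probes, a dim one that turned to -0.49 with the slide term. IGF1 (-0.12), the imprinted RNA H19 (0.81) and the growth hormone receptor GHR (0.53) were not called. Over the 25 probes of the family the median was -0.37, with -0.13 under the slide term and -0.41 in Texel.

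Hormone receptors and hormone-responsive factors moved in both directions, with 7 of 26 probes called higher and 4 lower (together 42.3%, against 14.7% of all tested probes) and a median of 0.13. KLF9, a transcription factor that glucocorticoids and thyroid hormone induce, read 10.25, 9.85 and 10.08 at 120 d and 12.28, 12.22 and 11.46 at 135 d. All U135 arrays stood more than the spread of either group above the U120 arrays, and KLF9 rose by 1.93 ± 0.36 (adjusted p = 0.00453) and changed by 1.62 with the slide term. CEBPB, a factor of the same hormone responses and of inflammation, rose on 2 separate probes, by 2.08 (adjusted p = 0.00706) and 1.15 (adjusted p = 0.00475). The thyroid hormone receptor THRB read 6.55, 7.48 and 7.40 at 120 d and 8.21, 8.58 and 8.76 at 135 d. Its groups did not overlap, and it rose by 1.37 (adjusted p = 0.00209) and by 1.78 with the slide term (adjusted p = 0.0423). The related receptor THRA (0.06 and 0.05) was not called. The estrogen receptor ESR1 rose by 1.30 and the prostaglandin F receptor PTGFR by 1.37, and both calls ended without any of 4 or more single arrays (adjusted p up to 0.129). AGTR2, the angiotensin receptor of fetal tissues, read 6.98, 7.44 and 7.71 at 120 d and 6.42, 5.81 and 6.17 at 135 d. It was lower on each U135 array and fell by -1.25 (adjusted p = 0.00949) and, on a separate probe, by -1.13, and the Texel values within slide 4 were -1.09 and -1.32. The mineralocorticoid receptor NR3C2 fell by -0.71 and -0.74, whereas the glucocorticoid receptor NR3C1 (-0.54, adjusted p = 0.0645) and the cortisol-activating enzyme HSD11B1 (0.63 and 0.64) were not called.

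In 4 lists no probe was called by limma: 0 of 31 for lipid and sterol synthesis (4 at an unadjusted p under 0.05, 1 by the methods' t-test), 0 of 23 for heat shock and protein turnover (3 and 3), 0 of 9 for cathelicidins and defensins (0 and 0) and 0 of 5 for haemoglobin (0 and 0). Their medians were -0.11, -0.09, -1.19 and 0.60, and under both other scalings that of heat shock turned to 0.07 and 0.12. FABP4, the fatty acid carrier of adipocytes, read 7.20, 5.54 and 5.20 at 120 d and 9.59, 7.99 and 7.54 at 135 d. Its groups did not overlap, but the spread within them was wide, and it was not called (2.39, adjusted p = 0.0693). CATHL1B, an antimicrobial peptide precursor of young neutrophils, read 12.43, 15.23 and 14.86 at 120 d and 11.46, 11.40 and 14.16 at 135 d. U120 replicate 1 and U135 replicate 3 lay among the arrays of the other age, and it was not called (-1.83, adjusted p = 0.26). In the lists of ribosomal proteins 3 of 35 probes were called, of the interferon response 2 of 22, of leukocytes 4 of 30, of endothelium 3 of 32 and of nerve 1 of 2. These shares were 8.57%, 9.09%, 13.3%, 9.38% and 50%, so all but nerve, with its 2 probes, lay under the 14.7% of all tested probes. The ribosomal median was -0.08, but 0.36 and 0.42 under scaling by the 75th percentile and by the median, and RPS26 (-0.36) turned to 0.12 and 0.18 under them. With the slide term RPS25 (1.15) turned to -0.65 and the endothelial receptor KDR (-0.49) to 0.45, and the calls of RPS25, RPS26 and KDR each ended without any of 4 or 5 single arrays (adjusted p up to 0.131). The other KDR probes changed by -0.38, 0.12 and -0.15 and were not called, and RPS25 too was called on only 1 of its probes.

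The labelled tissue was checked against markers. Of 14 skeletal muscle markers 6 were on the array, with 12 probes, whose mean level was 14.14, 14.02 and 14.12 at 120 d and 14.61, 14.91 and 14.80 at 135 d. The brightest of them was TNNC2, and 11 of the 12 probes were well above background on all 6 arrays. Of the 12, 5 rose and 0 fell, where 7.16% of all tested probes rose and 7.53% fell. The 5 were probes of MB, MYH7 and MYH1, while no probe of TNNC2, MYH2 or CASQ1 was called. Markers of fibroblasts and tendon (6 of 8 genes, 10 probes) had a mean of 12.76, 11.31 and 11.69 at 120 d and 10.27, 10.58 and 10.92 at 135 d, with 3 probes called lower and DCN the brightest. The means did not overlap, and U120 replicate 1 was highest. On that array the tendon gene TNMD read 14.20, against 9.02 and 10.25 on the other U120 arrays and 4.33, 7.44 and 9.48 at 135 d. The only nerve marker measured of 8, STMN2, read 8.43, 11.73 and 10.99 against 5.65, 6.72 and 8.93, so that the groups overlapped, and its fall of -3.29 (adjusted p = 0.0387) was not called without U120 replicate 2 (adjusted p = 0.136) or 3 or U135 replicate 1 or 2. Erythroid markers (2 of 11 genes) averaged 12.99, 13.29 and 12.93 against 13.38, 13.71 and 13.35 with HBB the brightest, and leukocyte markers (8 of 16 genes, 14 probes) 6.20, 6.61 and 6.43 against 6.29, 6.77 and 6.39. The leukocyte markers CD4 and CD8A were well above background on 0 arrays. Adipocyte markers (3 of 5 genes) averaged 7.18, 7.05 and 7.38 against 8.10, 7.85 and 7.70, where 0 probes were called and the median change was 0.12, with the widest changes on FABP4 (2.39) and 1 PLIN1 probe (0.93). Endothelial markers (3 of 7 genes) averaged 6.46, 6.28 and 6.52 against 6.48, 6.61 and 6.51. Skin markers (3 of 10 genes) averaged 6.34, 4.71 and 5.27 against 5.06, 5.39 and 5.15, with KRTAP11-1 called higher (1.70, adjusted p = 0.038) and KRT27 at 9.12 on U120 replicate 1 alone. The slide term turned the KRTAP11-1 change to -1.70. Of 3 cartilage markers ACAN alone was measured, with neither probe well above background on all 6 arrays. The part of these other tissues in the changes was not tested.

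Texel fetuses of the same ages, which are other animals, give the nearest comparison, but their arrays shared slides with the Ujumqin ones. Of the T120 arrays 2 lay on slide 4, as did all U120 arrays. Of the T135 arrays 2 lay on slide 5, as did all U135 arrays. In the agreement of the breeds over all arrays, a change with age and a slide step therefore cannot be told apart. Among the 2112 probes called in Ujumqin, 1856 (87.9%) had the same sign in Texel, against 67% of all tested probes, and across the called probes the changes of the breeds correlated with r = 0.704, and 0.399 over all tested probes. Probes are not independent replicates, so these are descriptions. Within slide 4, where 1 T135 array can be set against 2 T120 arrays, 71.4% of the called probes had the same sign, against 57.7% of all. For probes called higher in Ujumqin that share was 80.2%, and for probes called lower 63.2%. The share on 1 slide ranged from 55.4% to 76.2% when 1 of the 2 T120 arrays was left out.

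Texel itself gave 49 calls (0.341%), 33 higher (0.23%) and 16 lower (0.111%), with 2648 probes at an unadjusted p under 0.05 and a median SE of 0.26 against 0.20 in Ujumqin. Of these 49, 30 were called in Ujumqin in the same direction, which is 61.2% of the Texel calls and 1.42% of the Ujumqin calls, and 0 in the opposite one. They include XDH, PGFS, GSTA1 and the chloride transporter CLCN5, whose probes fell by -1.38 and -1.33 in Ujumqin and by -1.92 and -1.78 in Texel. CLCN5 falls outside the rule for naming and was chosen after its values were seen. The Texel counts depend on single arrays, with 744 higher and 651 lower without T120 replicate 2, and 3 and 5 without T120 replicate 3. A call in Ujumqin without one in Texel therefore does not show that the breeds differ.

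**Figure D4:**
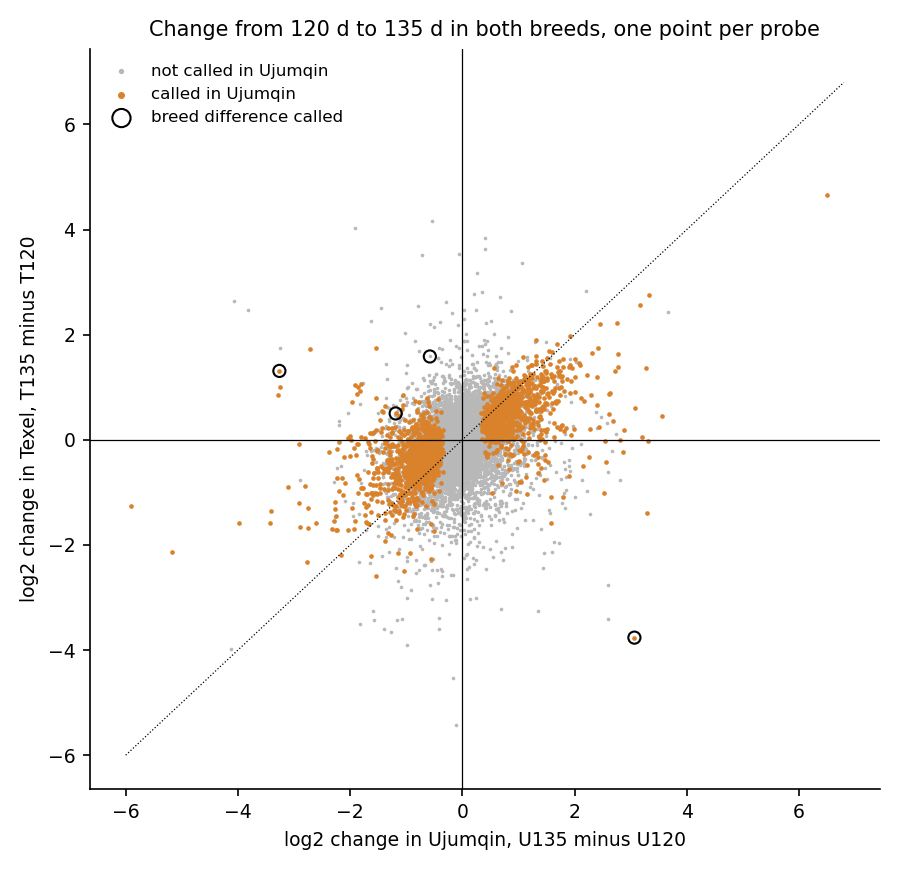
Change from 120 to 135 d in Texel (vertical axis, log2) against that in Ujumqin (horizontal axis, log2) for each tested probe, with the dotted line at equal change. Most probes called in Ujumqin lie on the same side of 0 in both breeds, and the circles mark the 4 probes whose change differed between the breeds by the test.

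The difference between the breeds in the change was tested directly, and 4 probes passed (0.0278%), 1 with the higher (0.00695%) and 3 with the lower change in Ujumqin (0.0209%), all of 2-fold or more, with 1351 at an unadjusted p under 0.05. The named ones are EPCAM, an adhesion protein of epithelial cells, and BARX2, a homeobox factor expressed in muscle precursors. BARX2 read 12.96, 13.16 and 12.93 in U120 and 12.001, 11.72 and 11.77 in U135, and 11.85, 10.87 and 11.39 in T120 and 11.80, 12.04 and 11.78 in T135. The Ujumqin arrays separated by age and the Texel arrays overlapped. BARX2 fell by -1.19 in Ujumqin (adjusted p = 0.000673) and changed by 0.50 in Texel, a difference of -1.69 (adjusted p = 0.0285) that was not called from the deposited table, with another background correction, with array weights or without any of 6 single arrays. EPCAM read 5.71, 4.18 and 4.43 in U120 and 1.56, 1.43 and 1.54 in U135, where 0 arrays were well above background, so that it was at least 1.42-fold lower. In Texel 0 arrays of either age were well above background for EPCAM, so neither an order of the ages there nor the size of the difference can be read, and the call (adjusted p = 0.00211) was not made with a floor of 16 or with another background correction. Without T120 replicate 1 the count of such probes was 170, and without U120 replicate 2 it was 2.

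Seen over the 5 fetal stages, several of these genes continued a course that was already under way. This is given as description because the steps before and after 120 d share the U120 arrays. The Ujumqin groups of 70 to 100 d held both sexes, whereas all U120 and U135 fetuses were labelled female. The called MYH1 probe had stage means, in order of age from 70 to 135 d, of 5.54 ± 0.16 (SD, n = 3), 6.61 ± 0.30, 10.04 ± 0.08, 13.79 ± 0.46 and 14.95 ± 0.14. The step from 100 to 120 d was 3.75, and that from 120 to 135 d 1.17. KLF9 climbed from 6.60 ± 0.27 (SD, n = 3) at 70 d through 8.43 ± 0.51 at 100 d and 10.06 ± 0.20 at 120 d to 11.99 ± 0.46 at 135 d, with similar steps on either side of 120 d. COX7A1 took a like course, from 13.60 ± 0.43 in the youngest fetuses to 15.61 ± 0.12 at 100 d, and then 16.73 ± 0.03 and 17.97 ± 0.18 at the later ages.

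Other genes had their widest step after 120 d. IGF2 on its coding probe had means of 14.88 ± 0.56, 15.51 ± 0.57, 14.99 ± 0.14 and 14.73 ± 0.29 (SD, n = 3) through the first 4 stages, and 13.12 ± 0.54 in the last, at 135 d. BCAT1 stood at 11.64 ± 0.27 at 70 d, 10.97 ± 0.26 at 100 d and 9.82 ± 0.35 at 120 d, and then at 6.90 ± 0.29 at 135 d. In Texel its mean was already 7.59 ± 1.87 at 120 d, with a wide spread, and 7.51 ± 0.88 at 135 d. THRB lay between 6.74 ± 0.03 and 7.22 ± 0.17 through 120 d and at 8.52 ± 0.28 at 135 d. MMP1 had its highest mean at 100 d, and its stage means, in order of age, were 3.95 ± 0.66, 7.83 ± 0.76, 9.39 ± 0.61, 8.26 ± 0.40 and 3.08 ± 1.40. Among the lists, the median step from 100 to 120 d and that from 120 to 135 d were 1.30 and 0.39 for fast fibre genes, 0.62 and 0.59 for glycolysis, -0.52 and -0.75 for the cell cycle and 0.11 and 0.98 for redox enzymes.

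**Figure D5:**
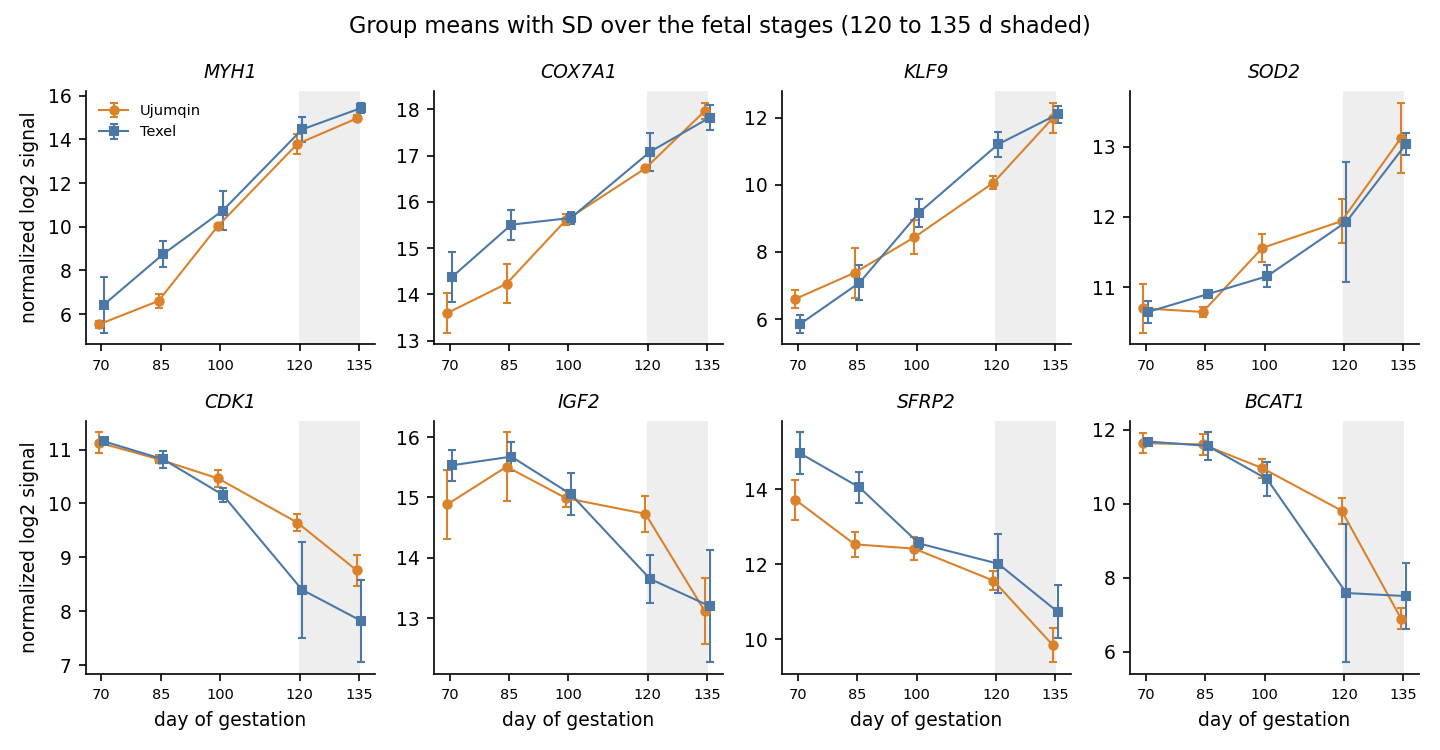
Mean level of 8 genes (log2 normalized signal, bars show the SD over the arrays of a stage) at the 5 fetal stages (days of gestation, horizontal axis) in Ujumqin and Texel, with the interval from 120 to 135 d shaded. MYH1, COX7A1 and KLF9 climb over all stages, while IGF2 and BCAT1 of Ujumqin have their widest step in the shaded interval.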

How the data were processed

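RNA of 40 longissimus dorsi samples had been hybridized to Agilent one-colour sheep arrays, each to 1 array. The processed signal in the array files is an intensity that, per the file headers, Agilent Feature Extraction had made by background subtraction and detrending of each array by itself. The deposited series table holds log2 values that the authors had quantile-normalized across arrays, with a median of 8.64 on every array and rank correlation of 1.0000 with the processed signal.

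From the array files, control spots and spots marked as outliers were left out, replicate spots were averaged, and the 31 fetal arrays were quantile-normalized, floored at 1 and put on a log2 scale. Of 15008 probes, 14379 that were well above background on at least 1 fetal array were tested. A linear model of stage was fitted to the 15 Ujumqin fetal arrays and another to the 16 Texel ones with limma 3.58.1 in R 4.3.3, and a model of all 10 groups gave the difference between breeds. Benjamini-Hochberg adjustment ran over all 14379 probes, and an adjusted p under 0.05 was a call. With 3 arrays per group the median SE was 0.20 in Ujumqin and 0.26 in Texel, and the number of arrays limits the precision. Python 3.11.15 and matplotlib 3.10.9 made tables and figures. The fitting code was tested on simulated data.

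Names came from the array files for 1605 probes and from the homology table of the study alone for 279, in all 1884 probes and 1210 gene names. On that table alone rest the printed calls of ABCB4, ACADM, ADH6, ALDOC, ANKRD1, AOX1, AURKB, CCL26, CDCA3, CENPE, COX7A1, EEF1A2, EPCAM, FBP2, GBP2, GRM8, KIF15, KLF9, KRTAP11-1, MAOB, MECR, MIIP, MYH1, PCLAF, SFMBT1, SFRP2, STMN2, TMOD4 and TPI1, and those of the CEBPB probe with the smaller change, the APOA1 probe with the smaller change and the third PGFS probe. Up to 15 named genes per direction were taken by size of change among called probes without overlap of the groups and well above background on all 3 arrays of the brighter group, then members of 19 gene lists, up to 5 named genes per direction by the difference between breeds, and up to 3 probes without a name per direction. The comparison, its members, the lists and this rule were chosen with earlier results of these data known.

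Alternatives were scaling by the 75th percentile or the median, the deposited table, background correction by normexp with an offset of 50, a floor of 16, a filter on 3 arrays, a variance trend, array weights, slide or replicate number as a block, sex as a covariate, fits to fewer or more arrays, the methods' t-test, an adjusted p under 0.01 and leaving out each array. Added after values had been seen were the shares of the same sign in Texel, those within slide 4, and the list counts without single arrays. Arrays of lambs were in no comparison and entered only an alternative that normalized all 40 arrays together. Some members of the gene lists are not reported here by name. Replicate numbers did not pair the arrays: deviations from the group means correlated at -0.013, -0.056 and 0.011 for the same number and from -0.055 to 0.066 for different numbers.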

Additional observations from a re-analysis of the deposited data

Results flagged for a closer look

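The change from 120 to 135 d differed between Ujumqin and Texel for 4 probes, and this difference between groups is what marked them. EPCAM had a difference of -4.57 (Ujumqin minus Texel, adjusted p = 0.00211), with 5.71, 4.18 and 4.43 in U120 and 1.56, 1.43 and 1.54 in U135, against 1.48, 1.57 and 2.45 in T120 and 3.70, 2.74 and 2.98 in T135. Only the U120 arrays were well above background, so the size of the difference cannot be read. The call was not made with a floor of 16, with normexp background correction or with array weights. For BARX2 the difference was -1.69 (adjusted p = 0.0285), not called from the deposited table, with normexp, with array weights or without any of 6 single arrays.

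Probe A_70_P044306, which has no gene name, read 5.67, 5.61 and 5.18 in U120 and 5.05, 5.08 and 4.60 in U135, and 4.12, 4.18 and 4.45 in T120 and 5.89, 5.68 and 5.93 in T135. Its values were lower at 135 d in Ujumqin and higher in Texel, a difference of -2.16 (adjusted p = 0.00121), not called from the deposited table. The Ujumqin change by itself was not called (-0.58, adjusted p = 0.0821), whereas that of Texel was (1.59, adjusted p = 0.00908). Probe A_70_P053436, also without a name, had a difference of 6.83 (adjusted p = 0.0471), with 2.28 and 3.52 on the 2 U120 arrays that had a value and 6.95, 5.96 and 4.99 in U135, against 7.87 and 6.93 on 2 T120 arrays and 4.39, 4.22 and 2.29 in T135. No U120 or T135 array was well above background for it, so the size of the difference cannot be read, and the Ujumqin change is known only as at least 5.21-fold. It was not called under 75th percentile scaling, from the deposited table, with array weights or with a replicate block. With slide as a block all 4 were called.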

How the results depend on the processing

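Of the 139 called probes that are named here, 128 kept their call under 75th percentile scaling, 125 under median scaling, 137 from the deposited table, 112 with normexp background correction and 107 in a fit over all 10 groups. Only 67 kept it when the 6 arrays were fitted alone, 70 when they were also normalized alone, and 11 with slide as a block. The cause was not tested.

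With slide as a block, 73 probes were called higher and 125 lower in Ujumqin, 70 and 123 of them by 2-fold or more, 78 and 208 in Texel, and 16 for the difference between breeds. In the gene lists the count of calls with this block was 0 for the cell cycle, myogenic regulation, glycolysis, the interferon response, leukocytes, the insulin-like growth factor family, redox, nerve, endothelium and ribosomal proteins, 1 for fast fibre, fatty acid oxidation, lipid synthesis and hormone signalling, and 2 for slow and cardiac sarcomere and extracellular matrix. The calls for fast fibre and lipid synthesis were new, on probes not called without the block. It turned the direction of RPS25 (-0.65), CDKN1C (0.064), the ACTG1 probes (0.16, 0.13 and 0.14), PCK1 (0.39), an IGFBP4 probe (0.0402), IGFBP1 (-0.49), FTH1 (-0.14) and KDR (0.45). Outside the probes counted above, the skin marker KRTAP11-1 turned from 1.70 to -1.70. The cause was not tested.

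Scaling turned 3 genes: ACTG1 to 0.10 and 0.15, DCN to 0.0022 and 0.0582, and RPS26 to 0.12 and 0.18 under the 75th percentile and the median. Median scaling called 1314 higher and 961 lower in Ujumqin, and the 75th percentile 1158 and 1261. Under the 75th percentile 7 fast fibre probes, 5 of the insulin-like growth factor family and 5 ribosomal ones were called, and 75 higher and 75 lower in Texel, against 159 and 70 there under median scaling. The cause was not tested.

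Fitting only the 6 arrays, which leaves fewer degrees of freedom, gave 392 higher and 397 lower in Ujumqin, 201 and 190 of them by 2-fold or more, and 1 and 0 in Texel. The lists then held 7 calls for glycolysis, 4 for redox, 3 for myogenic regulation, 3 for fatty acid oxidation, 3 for the insulin-like growth factor family, 2 for extracellular matrix, 1 for slow and cardiac sarcomere and 0 for the interferon response, leukocytes, nerve, endothelium and ribosomal proteins. Normalizing the 6 arrays alone gave 420 higher and 407 lower. In a fit over all 10 groups 710 were lower in Ujumqin, and 582 higher and 344 lower in Texel.

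With normexp 190 probes were higher and 117 lower by 2-fold or more in Ujumqin, and 284 and 84 were called in Texel. An adjusted p under 0.01 left 420 higher and 389 lower in Ujumqin (202 and 181 by 2-fold or more) and 1 and 2 in Texel. The methods' t-test left 0 and 0 in both breeds after adjustment, also with 2-fold or more, and 272 higher and 242 lower by 2-fold or more at an unadjusted p under 0.05 in Ujumqin. Texel gave 98 and 33 calls with a floor of 16, 79 and 34 with a filter on 3 arrays, 84 and 58 with a variance trend, 0 and 0 with array weights, and 6 and 4 with sex as a covariate. The difference between breeds was called for 1 probe from the deposited table and for 1 with array weights. The cause was not tested.

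Replicate numbers did not pair the arrays, and with number as a replicate block 904 probes were higher and 953 lower in Ujumqin and 4 and 7 in Texel.

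Leaving out each array in turn gave 628 to 940 higher and 618 to 899 lower in Ujumqin, and 242 to 383 and 199 to 338 by 2-fold or more. For Texel the ranges were 3 to 744 and 5 to 651, and for the difference between breeds 2 to 170. The share of the same sign in Texel ran from 79.5% to 90.4%, and that within slide 4 from 55.4% to 76.2%. Calls per list ran from 9 to 13 for the cell cycle, 3 to 5 for myogenic regulation, 2 to 2 for fast fibre, 3 to 6 for slow and cardiac sarcomere, 9 to 13 for glycolysis, 7 to 11 for fatty acid oxidation, 0 to 2 for lipid synthesis, 5 to 9 for extracellular matrix, 0 to 4 for the interferon response, 0 to 4 for leukocytes, 5 to 10 for the insulin-like growth factor family, 8 to 12 for hormone signalling, 5 to 7 for redox, 0 to 1 for nerve, 1 to 3 for endothelium, 0 to 4 for heat shock, 0 to 5 for ribosomal proteins and 0 to 0 for cathelicidins and for haemoglobin. The cause was not tested. Signal over background limits what can be said of dim genes, since 83.3% to 89% of probes were well above background on these arrays.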

Other observations

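Of the 22 probes in the interferon list, 11 had their highest value on U120 replicate 1, and the 3 genes given here were chosen after their values were seen. MX1, which blocks viral replication, read 14.56 on U120 replicate 1 against 10.94 and 10.46 on the other U120 arrays and 10.998, 10.83 and 11.63 at 135 d. ISG15, a ubiquitin-like tag, read 14.09 there against 9.93 and 9.61, and 9.90, 10.07 and 10.86 at 135 d. OAS1, which senses double-stranded RNA, read 9.37 against 5.49 and 4.62, and 5.41, 5.72 and 6.19 at 135 d. On each of them U120 replicate 1 was the highest of the 6 arrays, and none of the 3 was called. Both GBP2 probes of the list had their highest value on U135 replicate 2.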
